A study of Gallus gallus with 6 samples.

Results

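The dystrophin and sarcoglycan complex was followed here through 8 genes: dystrophin (DMD, gene number 396236), utrophin (UTRN, 421610), dystroglycan (DAG1, 100049058), the sarcoglycans SGCA (100859263), SGCB (422760) and SGCD (416251), the syntrophin SNTB1 (404774) and the dystrobrevin DTNA (421104). They were taken by symbol from the deposited expression table, where all 8 were found among 18239 genes. Transcripts were sequenced in skeletal muscle of broilers (Gallus gallus) aged 180 days, in 3 libraries of soleus, which lies in the leg, and 3 libraries of the breast muscle pectoralis major. No treatment or genotype separates the groups, and the series text describes these muscles as very unlike in their fibre types. Nothing in the labels states that each library is another bird. P-values therefore measure the spread among these samples, and that spread may be technical.

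The complex spans the membrane of the muscle fibre, the sarcolemma. Dystrophin binds actin on the inner side and holds the membrane protein beta-dystroglycan, whose partner alpha-dystroglycan binds laminin in the basement membrane outside. The sarcoglycans stabilise this link, while dystrobrevins and syntrophins bind the tail of dystrophin and bring signalling proteins to it. In humans, loss of dystrophin or of a sarcoglycan causes muscular dystrophy, and in mammals utrophin, a close relative of dystrophin, is concentrated at the neuromuscular junction of adult fibres.

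Library totals were 38534335 to 39079981 fragments for soleus against 36309597 to 37123092 for pectoralis major. Values are FPKM, which divide the fragments of a gene by its length and by the library total, so levels may be compared between genes per length. The 8 genes held 353 (SNTB1 in pectoralis major library 1) to 12199 fragments (SGCD in soleus library 3). All 8 reached 1 FPKM in all 6 libraries, so none entered the test through 1 muscle alone. The labelled tissue was borne out by its defining genes, with ACTA1, the skeletal muscle actin, at 34592 to 40687 FPKM in soleus against 32375 to 45082 in pectoralis major. The heart genes NPPA, MYBPC3 and RYR2 summed to at most 0.137 FPKM in soleus and 0.0170 in pectoralis major.

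Of the 8 genes, 6 were higher in soleus, 1 (DTNA) was lower and 1 (SGCD) did not pass the test. The largest difference was that of SNTB1, at 4.00 times its pectoralis major mean in soleus, followed by UTRN (2.89 times) and SGCA (2.41 times). The test was limma on log2(FPKM + 1), two-sided, with Benjamini-Hochberg adjustment over 9616 genes and a threshold of 0.05. It called 57.3% of all genes tested, 40% as higher and 17.4% as lower in soleus, and the median log2 difference was 0.68 for the 8, against 0.26 for all genes. With so many genes called, a high count among 8 genes is not in itself particular to the complex. All differences below are soleus minus pectoralis major on this log2 scale, on which changes of low genes come out too small. Means carry the SD of the 3 libraries of a muscle (n = 3). In these bulk samples, more cells of a type and more RNA per cell cannot be told apart.

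**Figure D1:**
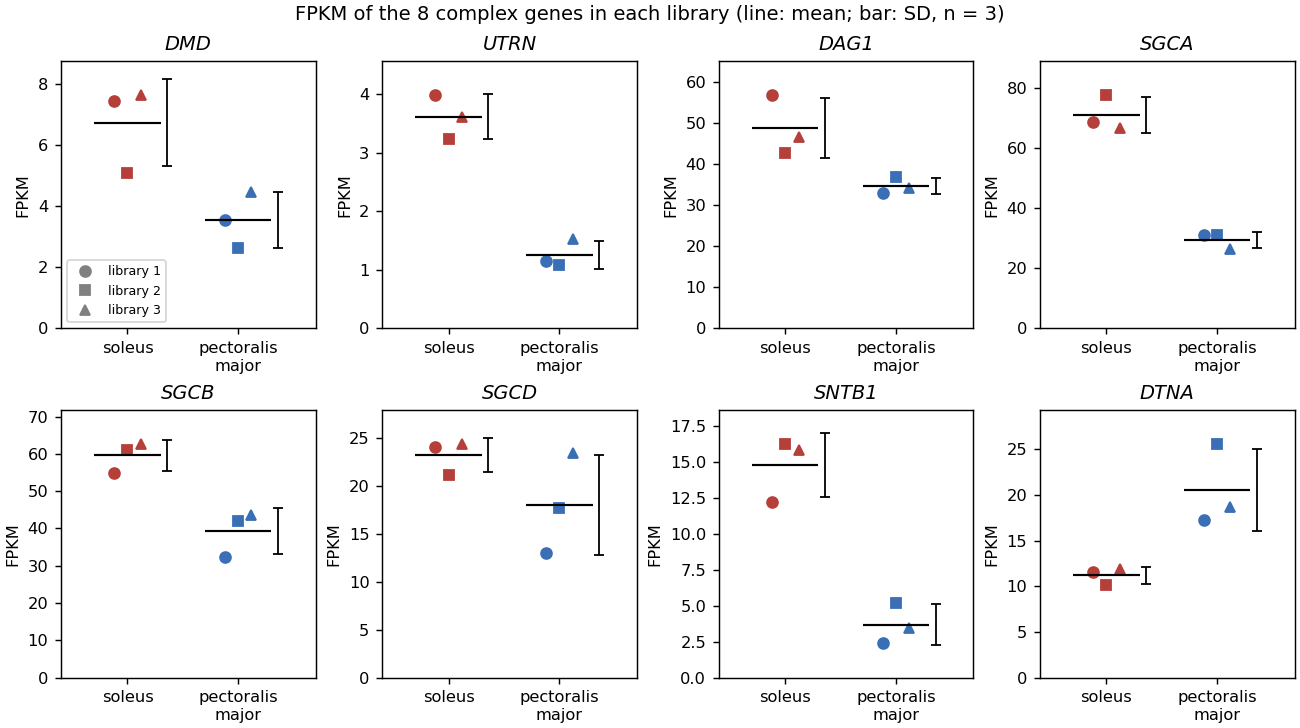
FPKM of each of the 8 genes in each library, soleus left and pectoralis major right in each panel, with library numbers as symbols, the mean as a line and the SD as a bar (n = 3 per muscle). The muscles do not overlap for 7 genes, and for SGCD pectoralis major library 3 (23.4 FPKM) lies within the soleus range.

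Dystrophin itself was modestly expressed and higher in soleus. DMD had 7.45, 5.09 and 7.65 FPKM in soleus libraries 1 to 3, against 3.55, 2.64 and 4.47 in pectoralis major libraries 1 to 3. The lowest soleus library lay just above the highest pectoralis major library, and library 2 was the lowest of its muscle in both. Its mean was 6.73 ± 1.42 FPKM in soleus against 3.55 ± 0.914 in pectoralis major, and the log2 difference was 0.77 ± 0.20 SE (limma adjusted p = 0.0104).

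Utrophin, the relative that can bind the same partners, had the lowest FPKM of the 8 in both muscles. UTRN had 3.99, 3.23 and 3.62 FPKM in soleus, against 1.16, 1.08 and 1.52 in pectoralis major. The groups were well apart, with the lowest soleus library above 2 times the highest of pectoralis major. The log2 difference was 1.04 ± 0.13 SE (limma adjusted p = 0.000359), larger than 91.3% of those of all genes tested. Its fragments, 3744 to 4567 in soleus and 1185 to 1678 in pectoralis major, were divided by a length of 29690 bases, the longest of the 8, while the length for DMD was 14983 bases. These lengths enter the order of levels between genes and cancel in a comparison of the muscles.

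Dystroglycan, whose single precursor is cut into the alpha and beta subunits, differed least among the genes that passed. DAG1 had 57.0, 42.8 and 46.6 FPKM in soleus, against 32.9, 36.9 and 34.3 in pectoralis major. The muscles did not overlap, but soleus library 1 stood above its other libraries. The log2 difference was 0.47 ± 0.14 SE (limma adjusted p = 0.0186), and without soleus library 1 it was 0.36 and did not pass (adjusted p = 0.0678).

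Among the sarcoglycans, alpha differed most. SGCA had 68.7, 77.9 and 66.6 FPKM in soleus, against 31.1, 31.0 and 26.3 in pectoralis major. The 3 soleus libraries were all above 2 times every pectoralis major library. The log2 difference was 1.24 ± 0.13 SE (limma adjusted p = 0.000128), larger than 94.3% of those of all genes tested.

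SGCB, the beta subunit, had 54.8, 61.1 and 62.8 FPKM in soleus, against 32.4, 42.1 and 43.5 in pectoralis major. Pectoralis major library 1 was the low one, and the groups did not overlap. Its log2 difference was 0.60 ± 0.15 SE (limma adjusted p = 0.00811).

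SGCD, the delta subunit, was the member that did not pass. It had 24.0, 21.1 and 24.4 FPKM in soleus, against 12.9, 17.6 and 23.4 in pectoralis major. The soleus libraries lay close together (SD 7.68% of the mean), while those of pectoralis major were spread (29.1%) and the highest lay within the soleus range. The log2 difference was 0.38 ± 0.20 SE (limma adjusted p = 0.128). It was 0.58 without pectoralis major library 3 and then passed (adjusted p = 0.0238), and 0.18 without pectoralis major library 1.

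The syntrophin gene showed the largest change of the 8. SNTB1, which encodes beta-1-syntrophin, an adaptor with a PDZ domain, had 12.2, 16.2 and 15.8 FPKM in soleus, against 2.41, 5.19 and 3.45 in pectoralis major. Every soleus library was above 2 times every pectoralis major library. The log2 difference was 1.78 ± 0.22 SE (limma adjusted p = 0.000314), larger than 97.6% of those of all genes tested. Library 1 was lowest in both muscles. Its 353 fragments in pectoralis major library 1 gave the widest counting error of the 8 relative to the level. The 95% Poisson interval there was 2.17 to 2.68 FPKM, which covers counting error only.

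Dystrobrevin went the other way. DTNA, which encodes alpha-dystrobrevin, a binding partner of both dystrophin and syntrophins, had 11.5, 10.2 and 11.9 FPKM in soleus, against 17.3, 25.6 and 18.7 in pectoralis major. The groups did not overlap, and pectoralis major library 2 stood above its other libraries. The mean was 11.2 ± 0.910 FPKM in soleus against 20.5 ± 4.48 in pectoralis major, and the log2 difference was -0.80 ± 0.16 SE (limma adjusted p = 0.00363). Only 8.30% of all genes tested had a lower log2 difference.

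Counted over the 8, the groups did not overlap for 7 genes, 6 higher and 1 lower in soleus, where 64.9% of all genes tested had groups without overlap, 45% higher and 19.9% lower. The spread between libraries was 5.88% to 38.1% of the mean, always above the 0.931% to 4.27% that counting alone gives, so sequencing depth did not set the precision. In the gene table of assembly GRCg7b, which is not the build named for these files, DAG1 overlaps NICN1 (at most 5.95 FPKM), SGCB overlaps SPATA18 (1.40) and SGCD overlaps TIMD4 (0.464). Whether strand was used in counting is not given, so fragments in shared stretches cannot be told apart.

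How the totals are set mattered for the smaller differences. Under median-ratio scaling, which centres the typical gene, the median of all genes was -0.04, and 50.6% of all genes were called, 21.1% as higher and 29.5% as lower in soleus. SNTB1 (1.45), SGCA (0.86) and UTRN (0.78) still passed as higher and DTNA (-1.17) as lower, while DMD (0.45, limma adjusted p = 0.0848), SGCB (0.22, 0.22) and DAG1 (0.093, 0.557) did not. With mitochondrial transcripts taken off the totals, the median of all genes was 0.45, and all 8 genes passed, 7 as higher, where 64.3% of all genes passed, 52.3% as higher and 12% as lower. Quantile normalization called 6 of the 8 (47.1% of all genes), as did a minimum mean of 5 FPKM (58.1%), under which UTRN was not tested. The count stayed at 7 with the replicate block (63.2% of all genes), a pseudocount of 0.1 (57%), no filter (32.3%), the 50 most abundant genes taken out of the totals (56%) and voom (57.1%). Leaving out 1 library gave 6 to 8, where the share of all genes was 47.9%, 49.4% and 47.9% without soleus libraries 1, 2 and 3 and 52.3%, 52.6% and 51.9% without those of pectoralis major. No member changed sign under any of the 15 alternatives. SNTB1, SGCA and DTNA passed in all 15 and UTRN in the 14 in which it was tested.

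**Figure D2:**
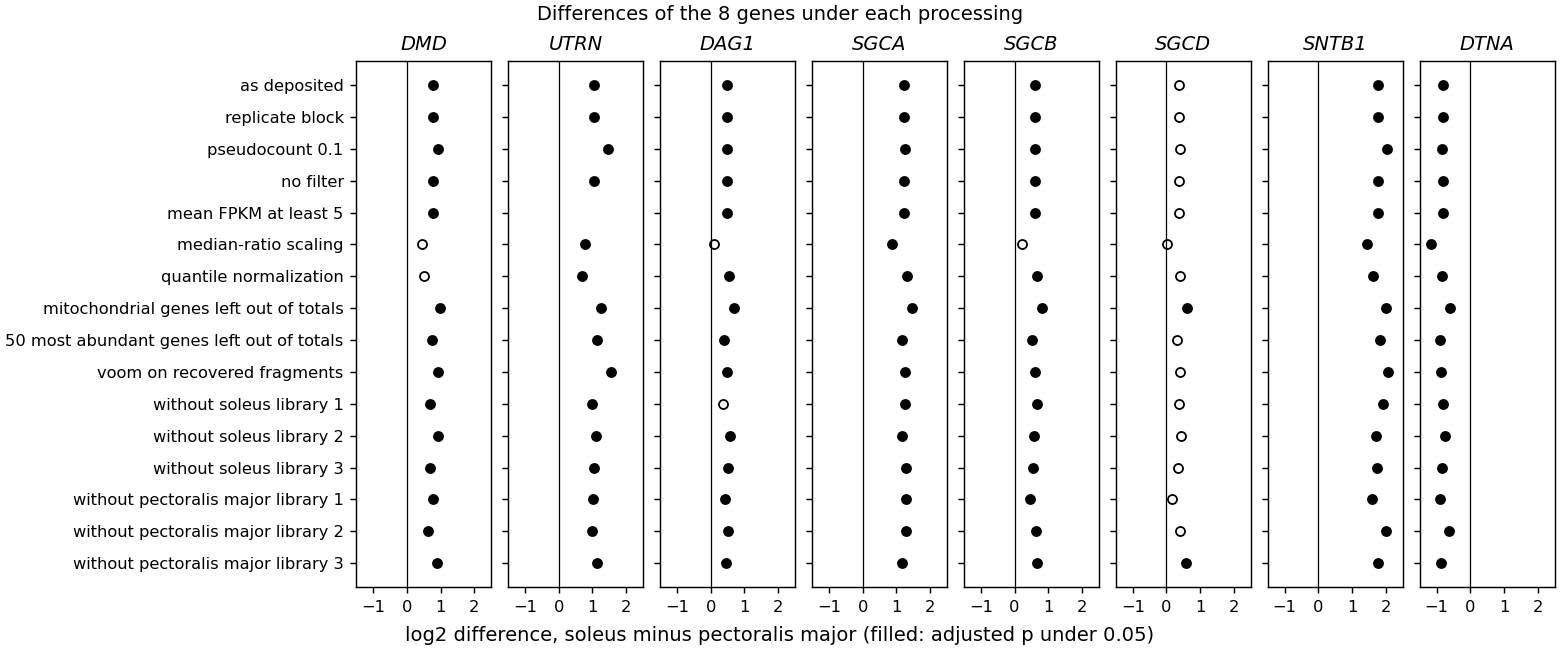
Log2 difference, soleus minus pectoralis major, of each of the 8 genes (panels) under each processing (rows), filled where the adjusted p is under 0.05. SNTB1, SGCA, UTRN and DTNA keep filled points throughout, while DMD, DAG1 and SGCB are open under median-ratio scaling, where DAG1 is at 0.093.

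The order of the levels per length differed between the muscles in places. In soleus the means ran SGCA (71.0 FPKM), SGCB (59.6), DAG1 (48.8), SGCD (23.2), SNTB1 (14.7), DTNA (11.2), DMD (6.73) and UTRN (3.61). Only SGCB and DAG1 overlapped among these neighbours. In pectoralis major the means ran SGCB (39.3), DAG1 (34.7), SGCA (29.5), DTNA (20.5), SGCD (18.0), SNTB1 (3.68), DMD (3.55) and UTRN (1.25), and overlaps joined SGCB to DAG1, DTNA to SGCD and SNTB1 to DMD. SGCA thus led in soleus but lay below SGCB and DAG1 in pectoralis major, and DTNA lay below SNTB1 and SGCD in soleus but above both means in pectoralis major. The 8 genes summed to 237.7 to 239.7 FPKM in soleus and 133.7 to 162.2 in pectoralis major, sums that rest mostly on SGCA, SGCB and DAG1.

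Ratios within a library are free of the library's scaling, apart from the pseudocount of 1. The 7 other members were set over DMD and compared with an exact two-sided permutation test of 3 against 3 libraries, whose smallest possible p is 0.1. Only DTNA over DMD did not overlap, with plain FPKM ratios of 1.55, 1.99 and 1.55 in soleus and 4.87, 9.72 and 4.19 in pectoralis major (difference of log2 ratios -1.57, exact p = 0.1, 0.35 adjusted over the 7). UTRN over DMD was 0.536, 0.633 and 0.473 as plain FPKM in soleus and 0.326, 0.408 and 0.341 in pectoralis major. These plain ratios did not overlap, but with the pseudocount they did (difference of log2 ratios 0.27, exact p = 0.2, 0.35 adjusted). For SNTB1 the difference of log2 ratios was 1.02 and for SGCA 0.48, with overlap. Those of SGCB (-0.17), DAG1 (-0.29) and SGCD (-0.38) also overlapped. Within the 3 same-numbered pairs all 7 ratios differed with 1 sign throughout, among them UTRN over DMD (0.32, 0.28 and 0.21 for pairs 1, 2 and 3) and SGCB over DMD (-0.15, -0.21 and -0.14). An exact sign-flip test over 3 pairs, added after seeing the data, gave p = 0.25 for each, the smallest it can give, so neither of these exact tests could pass for any ratio. All 7 ratios share DMD as the denominator, so their signs are not 7 separate results. How often ratios of other genes keep 1 sign over the pairs was not looked at.

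Make-up was set out as the share of each gene in the summed FPKM of related genes, so the gene lengths enter the size of each share. Over SGCA, SGCB, SGCD, SGCE and SGCZ, SGCA made up 45.1 ± 2.55% in soleus and 33.8 ± 6.15% in pectoralis major. SGCB made up 37.9 ± 1.87% in soleus and 44.4 ± 2.40% in pectoralis major, where it was the largest part. SGCD made up 14.8 ± 1.65% in soleus and 20.1 ± 4.08% in pectoralis major. None of these 3 shares overlapped between the muscles, SGCA being higher and SGCB and SGCD lower in soleus. Shares of a library add up to the whole, so a larger share of SGCA lowers the others, and these are not 3 separate results. Mean FPKM of SGCB was higher in soleus (59.6 against 39.3 in pectoralis major). That of SGCD was 23.2 in soleus against 18.0 in pectoralis major and did not pass the test.

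Among DMD, UTRN and the dystrophin-related gene DRP2, DMD made up 44.8 ± 2.85% in soleus and 53.7 ± 3.32% in pectoralis major, and UTRN 24.4 ± 2.29% in soleus and 19.2 ± 2.25% in pectoralis major. DTNA was 94.1 ± 0.749% of the summed DTNA and DTNB in soleus and 97.1 ± 0.759% in pectoralis major. The sizes of the DMD and UTRN shares rest on lengths of 14983 bases for DMD and 29690 for UTRN. As fragments, UTRN held 3744 to 4567 in soleus and 1185 to 1678 in pectoralis major. DMD held 2983 to 4474 in soleus and 1466 to 2484 in pectoralis major. These shares too add up to the whole in each library, and they were not tested.

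**Figure D3:**
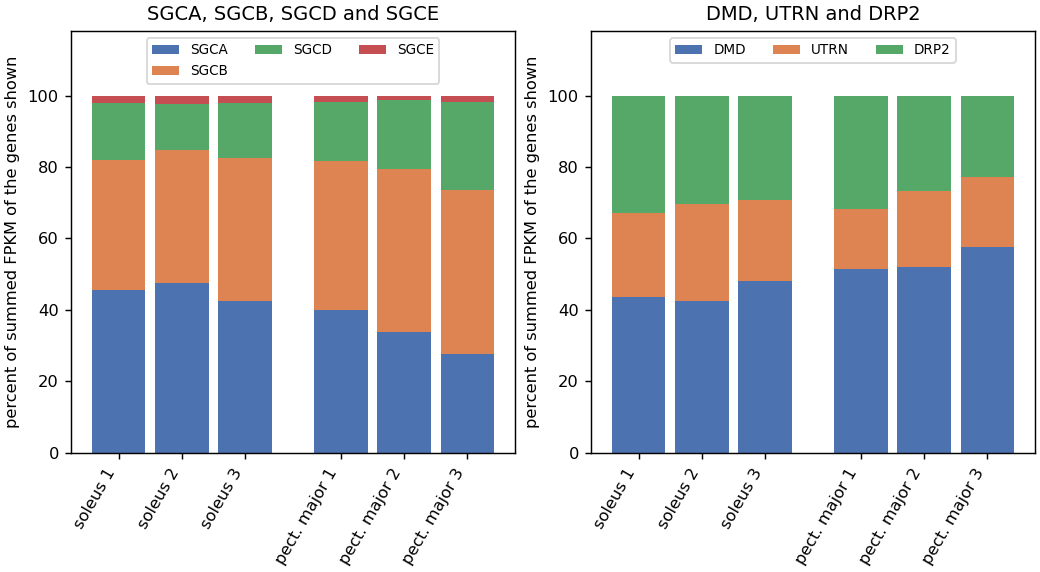
Share of each gene in the summed FPKM of the related genes (percent) in each library, the 3 soleus libraries left of the 3 pectoralis major libraries, for SGCA, SGCB, SGCD and SGCE (left; SGCZ, at most 0.0225%, is not drawn) and for DMD, UTRN and DRP2 (right). SGCA takes 42.4% to 47.5% in soleus and 27.7% to 40.0% in pectoralis major, and DMD takes 42.6% to 48.0% in soleus and 51.6% to 57.6% in pectoralis major.

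Of 13 other genes of the complex that were looked up in the table, 9 were tested. Among the 9, 6 (66.7%) were higher in soleus and 1 (11.1%) lower, beside 40% and 17.4% of all genes. The median log2 difference was 0.84 beside 0.26 for all genes. Under median-ratio scaling 4 were higher and 1 lower, beside 21.1% and 29.5% of all genes. SGCE, epsilon-sarcoglycan, had 3.50 ± 0.349 FPKM in soleus against 1.44 ± 0.253 in pectoralis major, and the log2 difference was 0.88 ± 0.13 SE (limma adjusted p = 0.000763). SYNC, syncoilin, an intermediate filament protein that binds alpha-dystrobrevin, rose most, with 23.9 ± 6.20 FPKM in soleus against 4.05 ± 2.08 in pectoralis major, and the log2 difference was 2.35 ± 0.29 SE (limma adjusted p = 0.000299). NOS1, the neuronal nitric oxide synthase that syntrophin anchors at the sarcolemma, averaged 4.59 ± 0.644 FPKM in soleus against 1.81 ± 0.283 in pectoralis major (0.99 ± 0.14 SE, adjusted p = 0.000634). DRP2 (1.02) was also higher, as were SYNM, synemin (0.84), and SNTB2, beta-2-syntrophin (0.47).

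Calls of SYNM and SNTB2 were not firm. SYNM did not pass without soleus library 1 (0.66, limma adjusted p = 0.0717). SNTB2 passed only with all libraries or without pectoralis major library 1. Without soleus libraries 1, 2 or 3 its adjusted p was 0.0887, 0.108 and 0.086, and without pectoralis major libraries 2 or 3 it was 0.123 and 0.0758, with a difference of 0.29 without library 2. Both were lost under median-ratio scaling (SYNM 0.46, SNTB2 0.20).

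SSPN, sarcospan, a small membrane protein bound to the sarcoglycans, fell as DTNA did, with 31.8 ± 3.14 FPKM in soleus against 48.7 ± 6.52 in pectoralis major, and the log2 difference was -0.60 ± 0.14 SE (limma adjusted p = 0.00739).

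CAV3, the caveolin of muscle, had 107, 107 and 53.7 FPKM in soleus against 55.7, 69.9 and 81.7 in pectoralis major and missed the threshold (limma adjusted p = 0.344). It passed without soleus library 3 (log2 difference 0.64, adjusted p = 0.0225), and its sign turned under median-ratio scaling (-0.071). AQP4, a water channel held by syntrophin, had 10.1, 5.59 and 3.37 FPKM in soleus and 7.06, 1.06 and 2.57 in pectoralis major. It missed the threshold (adjusted p = 0.182), yet was called when the replicate number was a block (0.0135) and without pectoralis major library 1 (1.33, adjusted p = 0.0225). DTNB had 0.699 ± 0.0371 FPKM in soleus against 0.596 ± 0.111 in pectoralis major and was not tested, nor were SGCZ, SNTG1 and SNTG2, of which SGCZ reached at most 0.0370 FPKM and SNTG1 and SNTG2 were listed at 0 in 5 of 6 libraries.

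**Figure D4:**
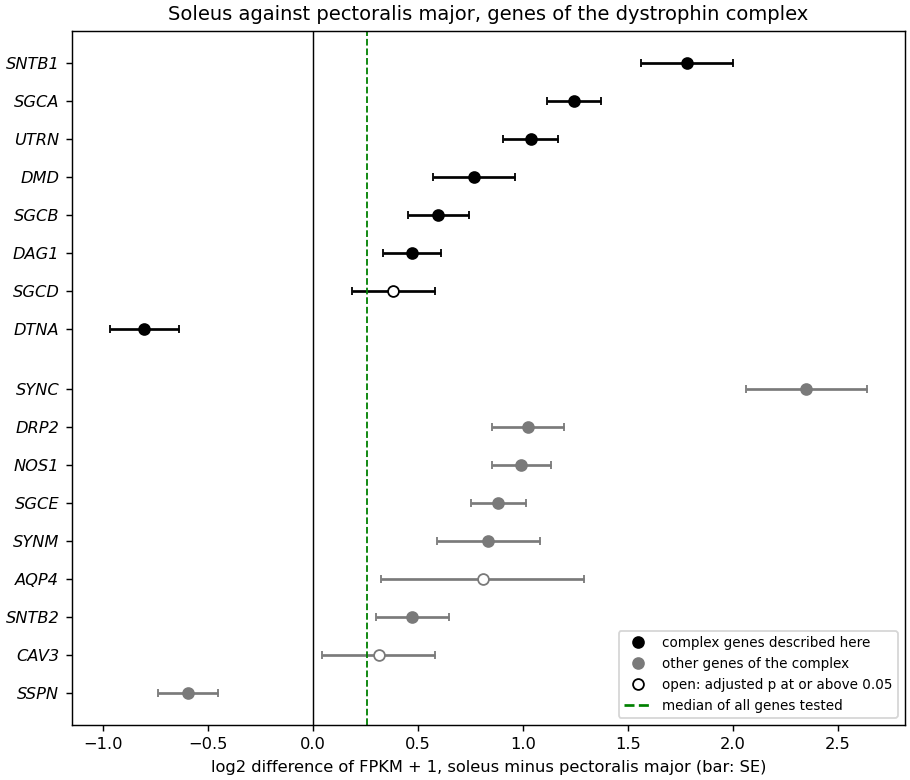
Log2 difference of FPKM + 1, soleus minus pectoralis major, with its SE for the 8 genes (black) and 9 other genes of the complex (grey), open where the adjusted p is 0.05 or more. DTNA (-0.80) and SSPN (-0.60) lie left of 0, and SYNC (2.35) and SNTB1 (1.78) lie farthest right of the dashed median of all genes (0.26).

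The enzymes that build the laminin-binding sugars of alpha-dystroglycan showed no common direction. Of 13 tested, 4 (30.8%) were higher in soleus and 2 (15.4%) lower, beside 40% and 17.4% of all genes. The median log2 difference was 0.082, under that of all genes. The split was 3 higher and 4 lower under median-ratio scaling, beside 21.1% and 29.5% of all genes. It was 5 and 0 with mitochondrial transcripts taken off the totals, beside 52.3% and 12%. POMT1 and POMT2, which together start the sugar chain on mannose, differed in opposite directions. POMT1 had 3.40 ± 0.130 FPKM in soleus against 1.69 ± 0.233 in pectoralis major, and the log2 difference was 0.71 ± 0.12 SE (limma adjusted p = 0.00151). POMT2 averaged 1.59 ± 0.183 FPKM in soleus against 2.51 ± 0.189 in pectoralis major (-0.44 ± 0.12 SE, adjusted p = 0.0123).

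DPM2 (0.75) and DOLK (0.70), which help supply the mannose donor, and GMPPB (0.43), which makes GDP-mannose, were higher in soleus, and POMGNT2 (-0.52) was lower. DPM1, the most abundant of the list, had 16.2 ± 1.73 FPKM in soleus against 16.2 ± 2.58 in pectoralis major and did not pass. POMT2 missed the threshold without soleus library 2 (-0.38, limma adjusted p = 0.0502). POMGNT2 passed only with all libraries or without pectoralis major library 3, with adjusted p of 0.0858, 0.0574 and 0.0598 without soleus libraries 1, 2 and 3 and of 0.0794 and 0.0817 without pectoralis major libraries 1 and 2. GMPPB did not pass under median-ratio scaling (0.079, adjusted p = 0.624) or without soleus library 3 (0.36, adjusted p = 0.0851).

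Ligands of dystroglycan and other basement membrane genes moved little as a group. Of 18 tested, 4 (22.2%) were higher in soleus and 1 (5.56%) lower, beside 40% and 17.4% of all genes. The median log2 difference was 0.28. With the replicate block 7 were higher and 1 lower, where 63.2% of all genes were called. Under median-ratio scaling the split was 1 and 4, beside 21.1% and 29.5% of all genes. LAMA2, the laminin chain of adult muscle fibres, had 8.35, 9.23 and 10.6 FPKM in soleus against 5.65, 6.37 and 11.9 in pectoralis major and missed the threshold (limma adjusted p = 0.356). It passed without pectoralis major library 3 (0.57, adjusted p = 0.0193) and its sign turned under median-ratio scaling (-0.072). LAMB2 (0.77), the laminin chain enriched at the neuromuscular junction, was higher, but not under median-ratio scaling (limma adjusted p = 0.0527). BGN, biglycan, which binds dystroglycan and sarcoglycans, was 13.2 ± 1.36 FPKM in soleus against 2.69 ± 0.287 in pectoralis major, and the log2 difference was 1.94 ± 0.13 SE (limma adjusted p = 1.55e-05).

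NID1, a linker of laminin and collagen IV, was lower in soleus (log2 difference -1.26), with 31.0, 22.5 and 40.5 FPKM there against 57.6, 55.6 and 129 in pectoralis major. Its groups did not overlap, and pectoralis major library 3 stood far above the rest. COL4A1 (0.66) and AGRN (0.40), the agrin that gathers acetylcholine receptors, were higher. AGRN did not pass under median-ratio scaling (0.15), nor without soleus libraries 2 (limma adjusted p = 0.0559) or 3 (0.0629) or pectoralis major library 1 (0.0522). COL4A1 had 54.8, 43.5 and 69.9 FPKM in soleus against 34.6, 26.7 and 44.0 in pectoralis major, which overlapped. It did not pass under median-ratio scaling (0.28, adjusted p = 0.325), nor without soleus libraries 1 (adjusted p = 0.0755) or 3 (0.102) or pectoralis major libraries 1 (0.0598) or 2 (0.0877). COL6A2, the most abundant of the list, had 71.6 ± 10.1 FPKM in soleus against 59.0 ± 25.6 in pectoralis major and did not pass, but did without pectoralis major library 3 (0.67, adjusted p = 0.0113).

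The integrin and costamere genes, a parallel link between fibre and matrix, were mostly higher in soleus. Of 21 tested, 14 (66.7%) were higher and 3 (14.3%) lower, beside 40% and 17.4% of all genes. The median log2 difference was 0.86. Under median-ratio scaling 13 were higher and 4 lower, beside 21.1% and 29.5% of all genes. SPTBN1, a spectrin, had 17.8 ± 1.30 FPKM in soleus against 6.10 ± 1.24 in pectoralis major, and the log2 difference was 1.42 ± 0.16 SE (limma adjusted p = 0.000174). DES, desmin (1.36), ANK2, an ankyrin (1.16), and ITGA6 (1.03) were also higher. ITGA7, the integrin chain of muscle fibres, had 37.7, 35.4 and 31.4 FPKM in soleus against 37.1, 24.7 and 17.1 in pectoralis major and did not pass (limma adjusted p = 0.139). It was called under the replicate block (0.0293) and without pectoralis major library 1 (0.73, adjusted p = 0.0122). It was 0.19 without library 3 of that muscle.

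The 3 lower ones were MURC (-1.05), a cavin of muscle, TLN2 (-0.67), talin 2, and ANK1 (-0.51). TLN1, talin 1, went the other way from TLN2, with a log2 difference of 0.87 (limma adjusted p = 0.00115). ANK1 did not pass without soleus libraries 2 (adjusted p = 0.092) or 3 (0.093) or pectoralis major libraries 1 (0.0787) or 3 (0.0713).

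Membrane repair genes were largely higher as well, 7 of 9 tested (77.8%), with 1 lower (11.1%), beside 40% and 17.4% of all genes. The median log2 difference was 0.91. Under median-ratio scaling 5 were higher and 1 lower, beside 21.1% and 29.5% of all genes. ANXA1, an annexin that gathers at membrane lesions, had 74.1 ± 4.62 FPKM in soleus against 12.9 ± 0.875 in pectoralis major, and the log2 difference was 2.44 ± 0.12 SE (limma adjusted p = 2.27e-06). ANXA2 (1.45), MYOF, myoferlin (1.22), and ANXA5 (1.00) followed, and ANXA6, the most abundant of the list, had 111 ± 9.84 FPKM in soleus against 71.5 ± 6.64 in pectoralis major. CAPN3, a muscle calpain, was lower (-1.77). Of the 7 higher ones, DYSF, dysferlin (0.42), and ANXA6 (0.63) did not pass under median-ratio scaling (0.045 and 0.24). DYSF passed narrowly (limma adjusted p = 0.043), and without soleus libraries 1, 2 or 3 its adjusted p was 0.0929, 0.0562 and 0.139, and without pectoralis major libraries 2 or 3 it was 0.122 and 0.0695.

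**Figure D5:**
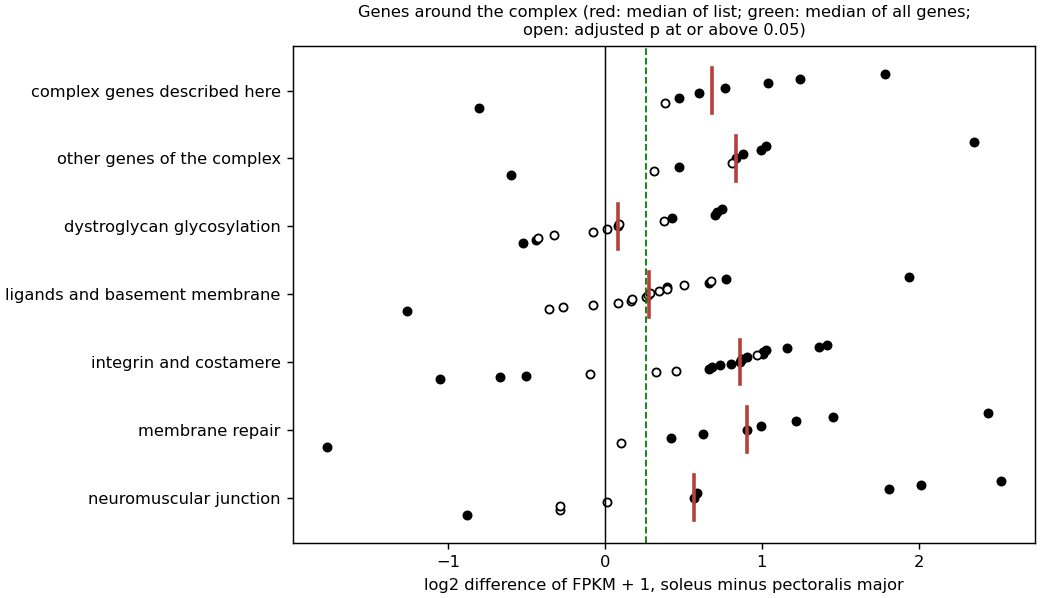
Log2 differences of FPKM + 1, soleus minus pectoralis major, of the tested genes of each list (points, open where the adjusted p is 0.05 or more), with the list median in red and the median of all genes (0.26) dashed in green. The list medians run between 0.082 for dystroglycan glycosylation and 0.91 for membrane repair.

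Genes of the neuromuscular junction, where utrophin and dystrobrevin are also placed, were tested in 9 cases. Of these, 5 (55.6%) were higher in soleus and 1 (11.1%) lower, beside 40% and 17.4% of all genes. The median log2 difference was 0.57. Under median-ratio scaling 3 were higher and 2 lower, beside 21.1% and 29.5% of all genes. The acetylcholine receptor subunits CHRNG (2.52), CHRND (2.01) and CHRNA1 (1.81) led. CHRNG had 15.1, 24.4 and 18.3 FPKM in soleus and 2.62, 2.09 and 2.72 in pectoralis major. ERBB2 (0.59) and PRKAR1A (0.57) were also higher and were lost under median-ratio scaling, and ERBB4 (-0.88) was lower.

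Likeness of pattern was measured as the root mean square difference of centred log2(FPKM + 1) over the 6 libraries. It was taken among 4884 other tested genes with a mean of at least 5 FPKM, leaving out genes whose symbol starts with LOC. Nearest to DMD were CDC42EP1 (0.0601), MYH9 (0.0807), a non-muscle myosin heavy chain, and LASP1 (0.0867). Nearest to UTRN were PLPP3 (0.0488), MESDC1 (0.0529) and ABCD2 (0.0572), and nearest to DAG1 were IFT80 (0.0397), CHERP (0.0460) and TRA2A (0.0534). The 6 libraries fall into 2 groups, so any gene with a like difference between the muscles comes out as near.

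Several of the 8 genes are also transcribed outside muscle fibres. Marker genes of such cells were mostly higher in soleus too. Of all genes, 40% were called higher as deposited and 21.1% under median-ratio scaling. Under median-ratio scaling the numbers higher were 6 of 11 for endothelial cells, 6 of 10 for smooth muscle, 4 of 6 for Schwann cells, 7 of 8 for leukocytes, 6 of 6 for adipocytes, 1 of 8 for fibroblasts and 3 of 7 for satellite cells. All 11 endothelial markers passed as higher (median log2 difference 0.95), with summed levels of 223.0 to 264.1 FPKM in soleus and 118.5 to 134.3 in pectoralis major. Of 10 smooth muscle markers 9 were higher and MYOCD was lower (median 0.94, 2165.5 to 2262.5 FPKM in soleus and 826.9 to 991.0 in pectoralis major, sums mostly made by DES, which muscle fibres express).

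All 6 Schwann cell markers tested were higher (median 0.97, summed levels of 61.8 to 101.1 FPKM in soleus against 31.9 to 46.2 in pectoralis major). All 8 leukocyte markers were higher (median 1.00, 1010.1 to 1116.1 FPKM in soleus against 518.7 to 663.0 in pectoralis major), as were all 6 of adipocytes (median 2.30, 337.6 to 418.0 FPKM in soleus against 88.3 to 92.4 in pectoralis major). Of 8 fibroblast markers 4 were higher (median 0.55, 282.4 to 405.8 FPKM in soleus against 213.1 to 403.9 in pectoralis major). Of 7 satellite cell markers 4 were higher (median 0.55, 78.8 to 89.2 FPKM in soleus against 40.2 to 67.9 in pectoralis major). No list had a marker at 0 in all libraries. The part of these cells in the differences of the 8 genes was not tested.

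Of 10 skeletal muscle markers, 4 were higher in soleus and 2 lower (median 0.098), beside 40% and 17.4% of all genes. Under median-ratio scaling 3 were higher and 4 lower, beside 21.1% and 29.5% of all genes. The summed level was 54182 to 64483 FPKM in soleus and 72558 to 86339 in pectoralis major. TNNI2 and TNNT3, the 2 lower ones as deposited, averaged 4572 and 6886 FPKM in soleus against 11937 and 15989 in pectoralis major. ACTA1, the largest part of the sums, averaged 38242 FPKM in soleus against 39448 in pectoralis major and did not pass. The slow and fast fibre markers split by type: MYH7B, TNNI1, MYL2 and MYL3, all of slow fibres, were higher, and MYH1E, TNNI2 and TNNT3, all of fast fibres, were lower. No pectoralis major library held a fragment of MYL2 or of NPPA, and NPPA was also at 0 in soleus libraries 1 and 2.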

How the data were processed

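Per the submitters' processing notes, the tools were HISAT2, HTSeq, Cufflinks and R 3.2.0 and the genome build was GRCg6a. Roles, other versions and the use of strand were not given in the sources used here. Deposited values are the authors' FPKM for each library, per the file headers. Whole fragments reproduced 100% of 94897 values above 0 (relative tolerance 1e-06), which gave the library totals, gene lengths and fragments. Of the symbols, 10 read as dates and were restored from gene numbers.

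Genes with at least 1 FPKM in at least 3 libraries were tested with limma 3.58.1 in R 4.3.3 (variance trend, log2(FPKM + 1)), and ratios with an exact permutation test. The script was tested on simulated data, for the fit with far fewer changed genes than were called here. That test therefore does not cover data in which most genes differ. Figures and tables used Python 3.11.15, numpy 2.4.6, pandas 2.3.3, scipy 1.17.1 and matplotlib 3.10.9. The 8 genes and all lists were chosen with earlier results of these data known. Some genes of these lists are not reported here and are left out of all list counts. CAVIN1 was read as its synonym PTRF. Named were the 8 genes, all other genes of the complex and, per further list, up to 4 called genes per direction with the largest difference and the most abundant one, plus the 3 genes nearest in pattern to DMD, UTRN and DAG1. LAMA2, ITGA7, TLN1 and DYSF were chosen after their values were seen.

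Libraries with the same number deviated together (r = 0.398, 0.445 and 0.367 over genes for numbers 1, 2 and 3). Other pairings were negative, which partly follows from centring each gene within its muscle and is no added evidence. The labels do not say that equal numbers are pairs. The main fit did not use pairs, and a fit with the number as a block was an alternative. Others changed the scaling, the filter, the pseudocount or the model (voom on the fragments with library totals), or left out a library.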

Additional observations from a re-analysis of the deposited data

How the results depend on the processing

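Of the 8 genes, 7 passed as deposited, where 57.3% of all genes tested passed. The number was 4 under median-ratio scaling, where 50.6% of all genes passed. It was 6 to 8 when 1 library was left out (47.9% to 52.6% of all genes). In the other alternatives it was also 6 to 8 (32.3% to 64.3% of all genes). DMD was 0.45 under median-ratio scaling and 0.51 under quantile normalization (limma adjusted p = 0.0556), neither of which passed, DAG1 was 0.093 and SGCB 0.22 under median-ratio scaling, and SGCD was 0.60, and then passed, once mitochondrial transcripts were taken off the totals. Leaving out 1 library gave 0.62 to 0.93 for DMD, 0.36 to 0.56 for DAG1, 0.47 to 0.67 for SGCB and 0.18 to 0.58 for SGCD. UTRN (mean under 5 FPKM) was not tested with a mean of at least 5 FPKM. With the replicate block all 7 calls of the 8 genes held (DMD adjusted p = 0.000897), SGCD did not pass (0.06), and 56 genes of the other lists were called with the block, against 49 without it (63.2% and 57.3% of all genes). Besides AQP4 and ITGA7, which gained a call, the block changed no call of a gene named in the report.

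Of 79 tested genes of the other lists, 49 were called (62%), 40 as higher (50.6%) and 9 as lower (11.4%), where all genes gave 57.3%, 40% and 17.4%. With a mean of at least 5 FPKM, which tests fewer genes, 32 of 53 were called, 27 as higher and 5 as lower. That is 60.4%, against 58.1% of all genes. Under median-ratio scaling 16 were lower (20.3%, against 29.5% of all genes). The ratio groups without overlap numbered 1 of 7 as reported, 2 with a pseudocount of 0.1, and 2 to 4 when 1 library was left out, where fewer samples overlap less. Among the genes named by rule, signs that turned, none of them past the threshold, were those of DPM1 under median-ratio scaling (-0.35), quantile normalization (-0.028), totals short of the 50 most abundant genes (-0.071) and when 1 library was left out (-0.11 to 0.10), and of CAV3 (-0.071) and COL6A2 (-0.036) under median-ratio scaling. Over all alternatives, the values of single genes named by rule outside the 8 and of single ratios counted as unchanged in 586 cases. For genes that meant the same direction and call, while ratios have no call. Besides the signs that turned, 50 cases counted as weaker and 4 as stronger, for genes a call lost or gained. Another 1 case counted as moved. This tally does not hold LAMA2, ITGA7, TLN1 and DYSF, which are described in the report. The cause of these changes was not tested. Depth limits little here, since the 8 genes held at least 353 fragments in each library.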

Other observations

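The deposited table annotates 77 genes as sarcolemma, of which 54 were tested. Of these, 28 (51.9%) were higher in soleus and 6 (11.1%) lower, beside 40% and 17.4% of all genes. The median log2 difference was 0.49. Under median-ratio scaling 14 were higher and 13 lower, beside 21.1% and 29.5% of all genes. The 54 hold members of the 8 genes and genes of the other lists, so these counts partly repeat those above. The genes named here were chosen after their values were seen. MYOT, myotilin, a Z-disc protein, averaged 839.3 FPKM in soleus against 76.7 in pectoralis major, a log2 difference of 3.44 (limma adjusted p = 4.61e-06), and POPDC3, a Popeye domain membrane protein, averaged 41.3 FPKM in soleus against 181.7 in pectoralis major (-2.09). PGM5, which is annotated to the dystrophin-associated complex and is known in mammals to bind dystrophin and utrophin, averaged 17.6 FPKM in soleus against 1.85 in pectoralis major (2.71, limma adjusted p = 1.08e-05). The 7 tested genes with that annotation counted 5 higher and 1 lower, or 2 and 1 under median-ratio scaling, where all genes gave 40% and 17.4%, or 21.1% and 29.5% under that scaling. Of these 7, 4 are not among the 8 genes of the report.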
